A study of Mus musculus with 60 samples.

Results

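The 7 Elovl genes of the mouse encode the fatty acid elongases, and all 7 were found by symbol among the 54232 gene IDs of the deposited count table. They were followed through 60 bulk RNA-seq libraries of liver, visceral fat and subcutaneous fat. In each tissue 5 libraries came from each of 4 groups of mice: Western diet with NaKtide, Western diet without NaKtide, control chow with NaKtide and control chow without NaKtide. By the labels fat made up 42% of the Western diet and 11% of the control chow, and carbohydrate 42.7% and 62%. Protein made up 15.2% of the Western diet and 27.0% of the chow, and both were fed for 12 weeks. NaKtide is a peptide taken from the sodium-potassium pump (Na,K-ATPase) that blocks the pump's signalling through the kinase Src. It was expressed from a transgene that doxycycline switched on, given at 300 mg/kg in the chow or the Western diet, and the series title speaks of the pump in adipocytes. The labels used here do not name the promoter of the transgene, the strain, sex or age of the mice, or say whether mice without NaKtide ate doxycycline or whether the same mice gave all tissues. Doxycycline is listed only for the NaKtide groups, so its effect and that of NaKtide cannot be told apart here. The transgene is not among the gene IDs, so its expression in the NaKtide groups could not be checked.

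Fatty acids made by fatty acid synthase, or taken from the diet, are lengthened in the endoplasmic reticulum by a cycle that adds a pair of carbons from malonyl-CoA in each turn. An Elovl enzyme carries out the first step, the condensation, and sets which chains are lengthened. The remaining steps are shared by all elongases and need a ketoacyl reductase (Hsd17b12), a dehydratase (Hacd1 to Hacd4) and an enoyl reductase (Tecr). ELOVL6 turns palmitate into stearate, the step that leads to oleate. ELOVL5 and ELOVL2 lengthen polyunsaturated chains, with ELOVL2 acting on the longer ones that lead to docosahexaenoic acid. ELOVL1, ELOVL3 and ELOVL7 lengthen saturated and monounsaturated chains, and ELOVL4 makes the very longest chains of retina, brain, skin and testis. In mouse liver Elovl5 and Elovl6 are known targets of the lipogenic regulator SREBP-1c, and Elovl3 is known for a higher level in males and a daily rhythm.

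Elovl5 and Elovl6 are the members whose liver level rose both with Western diet and with NaKtide on control chow, so their promoters are shown. Each line gives the 250 bases before the annotated start, on the plus strand of GRCm38.p6 from RefSeq, at chr9:77917115-77917364 for Elovl5 and chr3:129532136-129532385 for Elovl6, and capitals mark motif matches.
Elovl5: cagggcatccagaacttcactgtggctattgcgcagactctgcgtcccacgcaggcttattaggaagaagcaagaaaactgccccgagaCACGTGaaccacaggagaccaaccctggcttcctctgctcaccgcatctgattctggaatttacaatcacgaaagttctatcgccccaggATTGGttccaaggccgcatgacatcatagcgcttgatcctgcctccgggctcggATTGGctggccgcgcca
Elovl6: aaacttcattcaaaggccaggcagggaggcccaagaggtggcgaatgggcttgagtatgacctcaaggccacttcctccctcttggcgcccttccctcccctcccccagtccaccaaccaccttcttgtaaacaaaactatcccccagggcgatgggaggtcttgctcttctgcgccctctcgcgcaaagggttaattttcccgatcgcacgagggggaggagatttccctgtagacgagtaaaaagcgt
Both strands were searched for the E-box CACGTG, the CCAAT box and the sterol regulatory element TCACNCCAC, none of which overlaps another in these windows. The Elovl5 window holds 1 E-box that starts 161 bases upstream and 2 CCAAT boxes on the minus strand, read as ATTGG, at 71 and 17 bases upstream. The Elovl6 window holds none of these letters. Of 32851 mouse promoter windows of the same length, 6.02% hold the E-box, 33.8% the CCAAT box and 1.05% the sterol regulatory element. Of the other members, 1 of the Elovl1 windows holds a CCAAT box and those of Elovl2, Elovl4 and Elovl7 hold no match. The match is a description of letters and gives no evidence of binding.

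In GENCODE M21 on GRCm38, Elovl6 (ENSMUSG00000041220) lies on chromosome 3 from 129532355 to 129638495, Elovl5 (ENSMUSG00000032349) on chromosome 9 from 77917364 to 77984519 and Elovl3 (ENSMUSG00000038754) on chromosome 19 from 46131897 to 46135694. Elovl1 (ENSMUSG00000006390) lies on chromosome 4 from 118428093 to 118432953 and Elovl2 (ENSMUSG00000021364) on chromosome 13 from 41182381 to 41220405. Elovl4 (ENSMUSG00000032262) lies on chromosome 9 from 83778692 to 83806277 and Elovl7 (ENSMUSG00000021696) on chromosome 13 from 108214404 to 108285683. The values below are counts over the whole gene. Whether counting used the strand is not given in the sources used here, and 4 members overlap annotated genes on the other strand, Elovl7 only 2 processed pseudogenes. Cdc20, beside Elovl1, had a median of 1.16 counts per M in liver and 4.03 in visceral fat (at most 99.1), Pitx3, beside Elovl3, had at most 5.16, and Gm35986, beside Elovl6, had at most 22.1.

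Libraries held 3.18 to 9.78 M gene counts, with a median of 6.41 M. Marker sums are in CPM (counts per M of the TMM-scaled library size). Markers of the labelled tissue were plentiful in all libraries but 1, though markers of other tissues were higher in some. The visceral library of control chow replicate 5 had 681 CPM of 6 adipocyte markers, against 6322 to 19355 CPM in the other 19. In visceral fat, 8 of 20 libraries had over 1000 CPM of 14 epididymis and testis markers (control chow replicates 3, 4 and 5, control chow with NaKtide replicate 1, Western diet replicate 1, and Western diet with NaKtide replicates 2, 3 and 5). These markers exceeded the adipocyte markers in control chow replicates 3 (11816.5 against 10242 CPM), 4 (21279 against 6322) and 5 (18052 against 681). They also did in Western diet with NaKtide replicate 5 (25372 against 7625). In subcutaneous fat, 8 skeletal muscle markers summed to 27.6 to 3005 CPM on Western diet with NaKtide, 24.0 to 154 CPM on Western diet, 61.4 to 188837 CPM on control chow with NaKtide and 5824 to 44539 CPM on control chow. On control chow the median, 34063.5 CPM, was above the largest adipocyte sum of that group, 17921 CPM. With NaKtide the largest muscle sum exceeded the largest adipocyte sum, 18074 CPM. In liver, the control chow replicates 2 and 4 had 263 and 479 CPM of the same muscle markers. Replicate 1 of each Western diet liver group stood nearest the other group for Elovl3, which was seen in the values. Reported calls in liver and visceral fat that changed without such libraries are given both ways. Without the 8 visceral libraries, control chow keeps only replicates 1 and 2, and Western diet with NaKtide only replicates 1 and 4. A call lost in those fits thus also has fewer libraries behind it. No result for subcutaneous fat, alone or against another tissue, was fitted without its libraries high in muscle markers as a set. In such bulk samples, fewer cells of a type and less RNA per cell cannot be told apart.

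Per unit of gene length, Elovl5 was the highest elongase in 3 of the 4 liver groups and Elovl3 in livers on control chow without NaKtide, while Elovl1 and Elovl5 led in fat. FPKM, a count per length of gene and size of library, is used where genes are compared with each other. On Western diet with NaKtide Elovl5 led at 387 ± 44.6 FPKM, Elovl2 and Elovl6 followed at 64.6 ± 13.1 and 63.0 ± 23.0, and Elovl1 and Elovl3 came last at 29.997 ± 5.66 and 24.0 ± 11.6 (SD, n = 5 here and below). On Western diet without NaKtide the order was Elovl5 at 414 ± 50.3, Elovl3 at 215 ± 62.3, Elovl2 at 96.7 ± 31.7, Elovl6 at 89.2 ± 33.0 and Elovl1 at 30.5 ± 2.96 FPKM. In both groups Elovl2 and Elovl6 did not differ beyond their spread, nor did Elovl1 and Elovl3 with NaKtide. On control chow with NaKtide Elovl5 stood at 268 ± 129, Elovl3 at 136 ± 61.7, Elovl2 at 108 ± 30.04, Elovl6 at 50.7 ± 39.4 and Elovl1 at 26.8 ± 1.53 FPKM. On control chow without NaKtide Elovl3 stood at 181 ± 74.3 FPKM, Elovl5 at 87.5 ± 26.02, Elovl2 at 69.5 ± 12.6, Elovl1 at 29.5 ± 8.75 and Elovl6 at 12.8 ± 4.19. With NaKtide on control chow the mean ± SD of Elovl5, Elovl3 and Elovl2 each overlapped the next, as did that of Elovl6 and Elovl1, and without it those of Elovl3, Elovl5 and Elovl2 did.

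As a share of the summed FPKM of all 7 genes in liver, Elovl5 took 68.3% on Western diet with NaKtide, 49.4% on Western diet, 43.7% on control chow with NaKtide and 23.0% on control chow. Elovl3 took 4.09%, 25.1%, 25.3% and 46.0% in the same groups. Elovl3 had the largest share on control chow without NaKtide, and Elovl5 in the 3 other liver groups. In fat, Elovl1 took 29.5% to 52.7% and Elovl5 29.8% to 45.4% of the sum over the 8 groups.

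**Figure D1:**
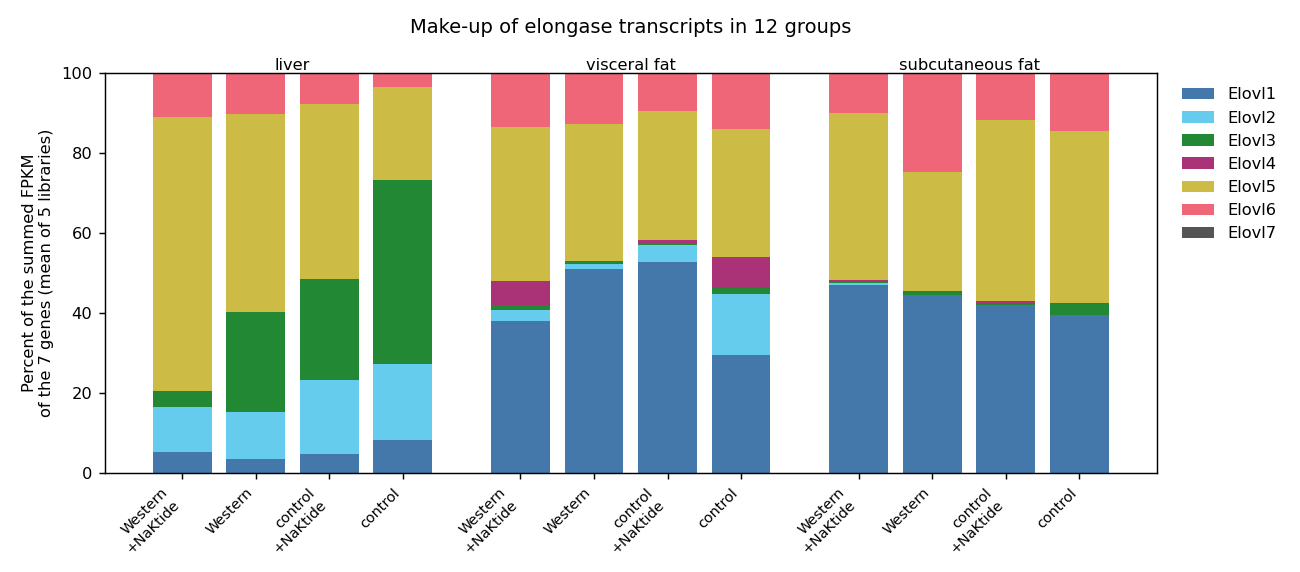
Mean share of each Elovl gene in the summed FPKM of the 7 genes, in percent, for the 12 groups of tissue, diet and NaKtide (5 libraries each). Elovl5 made up 68.3% in livers on Western diet with NaKtide and 23.0% in livers on control chow, and Elovl3 4.09% and 46.0% in those groups.

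Between tissues on control chow without NaKtide, 4 members were called, all higher in liver than in subcutaneous fat, in edgeR's quasi-likelihood test, with p adjusted by Benjamini and Hochberg's method over all genes tested, where 56.5% of all genes tested were called. They were Elovl2, Elovl3, Elovl5 and Elovl1, and of the 7 genes 6 passed the low-count filter. Elovl5 was higher in liver by 2.35 ± 0.23 (log2, SE; adjusted p = 1.18e-12). Elovl3 was higher by 7.46 ± 0.85 (adjusted p = 1.16e-10) and Elovl1 by 0.91 ± 0.23 (adjusted p = 0.000835). Mean Elovl1 was 53.9 CPM in liver and 50.4 CPM in subcutaneous fat, each scaled within its own tissue, and 29.5 and 15.4 FPKM. The size of the Elovl1 difference thus depends on how libraries are scaled between tissues. Elovl2 had 5 counts over the 5 subcutaneous libraries, all in 1 of them, while every control chow liver had at least 154 CPM. The 4 of 6 tested members stand near the share called among all genes.

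Against visceral fat on control chow, where 65.5% of genes were called, liver had more Elovl5 by 2.58 ± 0.23 (log2, SE; adjusted p = 9.80e-14), more Elovl3 by 7.40 ± 0.84 (adjusted p = 1.23e-10) and more Elovl1 by 1.13 ± 0.24 (adjusted p = 4.92e-05). For Elovl1 the size again depends on the scaling, with means of 53.9 CPM in liver and 47.4 CPM in visceral fat, or 29.5 and 13.6 FPKM. Elovl2 was higher by 3.01 ± 1.06 (adjusted p = 0.0122), and Elovl4 was lower. Elovl4 had 0 counts in livers on control chow and 588 counts in visceral fat, at least 144.5-fold lower in liver with 3 counts over the group as the floor, but 580 of the 588 counts came from replicates 4 and 5, and without the 8 visceral libraries with epididymis and testis transcripts the call was lost (adjusted p = 0.105). Elovl6 did not pass the test in that comparison (0.68 ± 0.59, adjusted p = 0.315), and did without those 8 libraries (2.67, adjusted p = 0.00419) or without visceral replicate 4 alone (1.46, adjusted p = 0.0350).

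Visceral fat had more Elovl2 (7.65 ± 1.60, adjusted p = 0.000663) and more Elovl4 (6.35 ± 1.77, adjusted p = 0.00637) than subcutaneous fat on control chow, in a comparison that called 31.6% of genes. Without the 8 libraries neither was called, with 3.60 for Elovl2 (adjusted p = 0.0640) and 0.86 for Elovl4 (adjusted p = 0.884), and Elovl4 also lost its call without visceral replicate 4 alone (4.03, adjusted p = 0.0625). Elovl2 lay at 3.27 to 149.9 CPM in the 8 visceral libraries with those transcripts and at 0 to 4.72 CPM in the other 12. Of 990 Elovl4 counts in all 60 libraries, 891 lay in 3 of these 8 libraries, and 29 libraries had none. ELOVL4 is known from testis, and the markers of testis and epididymis did not go together in these libraries. Control chow replicate 4, with 90.6 CPM of Elovl4, had 20917 CPM of epididymis markers and 362 CPM of testis markers. Western diet with NaKtide replicate 5, with 95.1 CPM of Elovl4, had 25010 and 362 CPM. Control chow replicate 5, with 15.1 CPM of Elovl4, had 8588 and 9464 CPM. The part of either set of transcripts in the tissue difference was not tested further.

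Western diet raised Elovl5 and Elovl6 in liver, with no change called in the other members. Livers on Western diet without NaKtide had 1070, 1169, 1032, 822 and 928 CPM of Elovl5, against 195, 163, 189, 314 and 173 CPM in livers on control chow. Every Western diet liver lay above every control liver, and control replicate 4 was the highest of its group. The difference was 2.28 ± 0.25 (log2, SE; 4.85-fold, 95% interval 1.76 to 2.80 on the log2 scale, edgeR adjusted p = 7.87e-06). For Elovl6, which lengthens palmitate, Western diet livers had 262, 529.9, 531, 219 and 429 CPM, against 76.9, 72.9, 45.5, 38.3 and 43.4 CPM in control livers. The groups did not overlap, and Western diet replicates 1 and 4 were the low ones of their group. The difference was 2.83 ± 0.43 (7.10-fold, adjusted p = 0.000234).

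These were 2 of the 5 members tested in liver, in a comparison in which 8.44% of all 12991 genes were called. The median log2 difference was 0.51 over the 5 members and 0.03 over all genes. Elovl2 differed by 0.51 ± 0.21 (adjusted p = 0.150), Elovl3 by 0.28 ± 0.34 (adjusted p = 0.664) and Elovl1 by 0.08 ± 0.17 (adjusted p = 0.819), and none of these was called. Without the 2 control livers with muscle transcripts the rises stood at 2.43 for Elovl5 and 2.83 for Elovl6, and both stayed called. Gm35986 had 10.05 to 22.1 counts per M in Western diet livers and 1.26 to 3.29 in control livers, below every Elovl6 value of its group.

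Marker sums of some cell types differed between the same livers without overlap. The 6 hepatocyte markers summed to 27556 to 34400 CPM on Western diet, against 35921 to 44738 CPM on control chow. The 5 cholangiocyte markers summed to 27.7 to 104 CPM, against 12.1 to 26.2 CPM, and the 5 fibroblast progenitor markers to 126 to 198 CPM, against 75.6 to 118 CPM. The 8 muscle markers summed to 7.37 to 11.6 CPM on Western diet, against 12.5 to 479 CPM on control chow. The part of these transcripts in the Elovl5 and Elovl6 results was not tested.

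**Figure D2:**
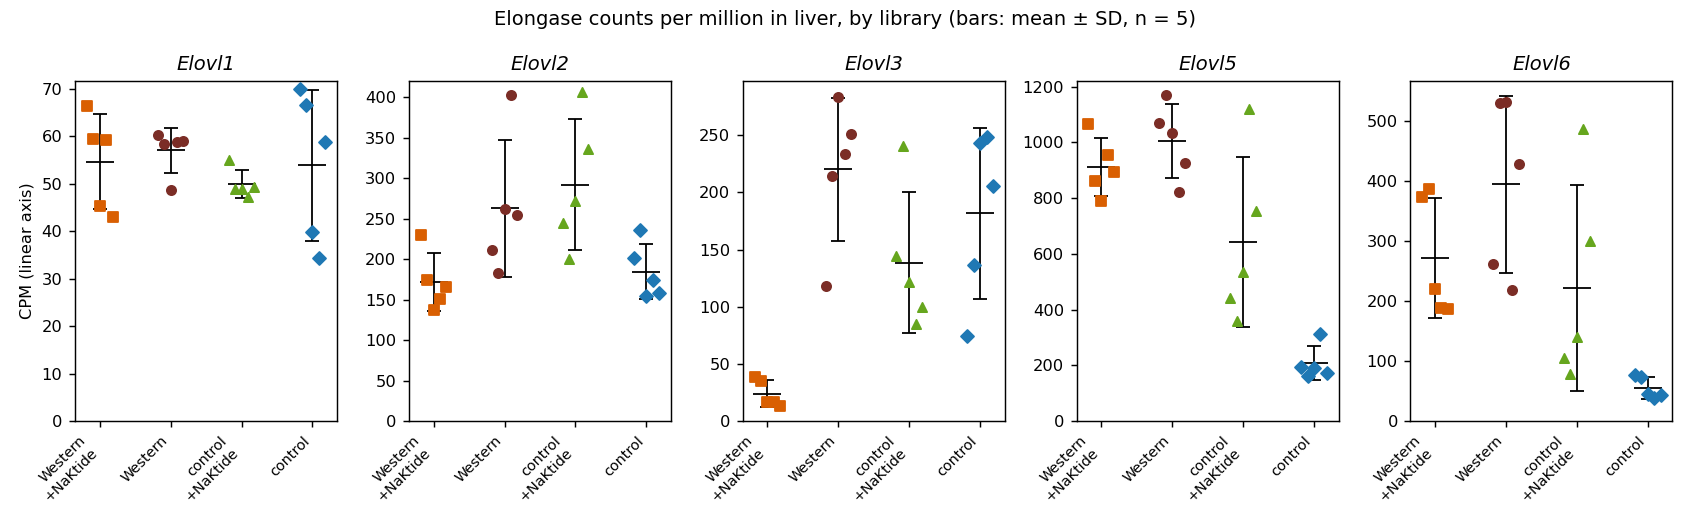
Liver level of the 5 Elovl genes that passed the low-count filter, in CPM on linear axes, by diet and NaKtide. Points are libraries and bars the mean ± SD (n = 5). Elovl5 and Elovl6 sit lowest in control livers without NaKtide, and Elovl3 lies at 13.5 to 38.4 CPM on Western diet with NaKtide, under all other livers.

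The genes that feed the elongases moved in the same comparison. Of 8 genes that supply malonyl-CoA and palmitate, 7 rose in liver with Western diet, among them fatty acid synthase Fasn (3.33 ± 0.41, adjusted p = 2.51e-05) and acetyl-CoA carboxylase Acaca (2.45 ± 0.30, adjusted p = 1.88e-05). Of 7 desaturases, 3 rose, among them Scd1 (1.97 ± 0.32, adjusted p = 0.000526) and Scd2 (3.08 ± 0.71, adjusted p = 0.00918), whose enzymes act on the stearate that ELOVL6 makes. None of the 5 tested partners in the elongation cycle (Hsd17b12, Tecr and the Hacd genes) was called. Of 10 genes for transcriptional control of lipid synthesis, 3 rose, among them Srebf1, which encodes SREBP-1 (1.38 ± 0.20, adjusted p = 0.00015), and Insig2, which holds SREBP back in the endoplasmic reticulum (1.15 ± 0.17, adjusted p = 0.000234). Of the acyl-CoA synthetases Acsl3 (1.46 ± 0.30, adjusted p = 0.00388) and Acsl5 (1.02 ± 0.21, adjusted p = 0.00403) rose and Acsl1 fell (-0.66 ± 0.19, adjusted p = 0.0304).

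Livers on control chow with NaKtide had more Elovl5 and Elovl6 than those without, with a less stable call for Elovl6. Control chow livers with NaKtide had 442, 359, 535, 1121 and 754 CPM of Elovl5, against 195, 163, 189, 314 and 173 CPM in those without. All NaKtide livers lay above all others, with replicates 4 and 5 highest. The difference was 1.63 ± 0.25 (log2, SE; 3.10-fold, edgeR adjusted p = 0.00220). Elovl6 had 106, 78.2, 139.7, 487 and 299.6 CPM in NaKtide livers, against 76.9, 72.9, 45.5, 38.3 and 43.4 CPM in livers without. The groups were separated by little, 78.2 against 76.9 CPM at the nearest, and replicates 4 and 5 with NaKtide again stood highest. The difference was 2.00 ± 0.42 (4.01-fold, adjusted p = 0.0166).

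Only 1.55% of all genes were called for NaKtide on control chow, and 2 of the 5 tested members were among them. The Elovl5 call held without the 2 control livers with muscle transcripts (1.79, adjusted p = 0.00898). The Elovl6 call did not, at 2.01 with adjusted p = 0.0736, nor without NaKtide replicate 4 (1.49, adjusted p = 0.0757) or replicate 5 (1.87, adjusted p = 0.0526). Elovl2 differed by 0.66 ± 0.21 (adjusted p = 0.120), Elovl3 by -0.39 ± 0.34 (adjusted p = 0.531) and Elovl1 by -0.12 ± 0.17 (adjusted p = 0.734). The diet comparison and this one share the 5 control livers without NaKtide, so the 2 results are not independent of each other.

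Of the suppliers of malonyl-CoA and palmitate 6 of 8 rose with NaKtide on control chow, among them Fasn (2.76 ± 0.40, adjusted p = 0.00220) and malic enzyme Me1 (2.09 ± 0.38, adjusted p = 0.00719). Of the desaturases 3 of 7 rose, including Scd1 (1.46 ± 0.32, adjusted p = 0.0214), and of the transcriptional control genes Srebf1 (1.14 ± 0.20, adjusted p = 0.00557) and Insig1 (1.11 ± 0.19, adjusted p = 0.00512) rose. None of the 5 cycle partners tested was called.

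NaKtide on Western diet lowered Elovl3 in liver and no other member by the test. Livers on Western diet with NaKtide had 38.4, 35.0, 16.6, 16.3 and 13.5 CPM of Elovl3, against 118, 214, 284, 233 and 251 CPM on Western diet without. The groups were far apart, and replicate 1 was the lowest without NaKtide and the highest with it. The difference was -3.17 ± 0.37 (log2, SE; edgeR adjusted p = 0.00016), in a comparison that called 4.79% of genes. Without replicate 1 of both groups it was -3.57 (adjusted p = 9.65e-06), and in that setting Elovl2 was also called lower (-0.81, adjusted p = 0.0125). Those libraries were chosen by their Elovl3 values, so a larger Elovl3 difference without them was fixed in advance and is no check of it.

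With all libraries Elovl2, which lengthens long polyunsaturated chains, had 230.4, 174, 137, 151 and 165 CPM on Western diet with NaKtide, against 212, 183, 262, 404 and 255 CPM without. The groups overlapped through replicate 1 with NaKtide, and the difference of -0.61 ± 0.21 had an adjusted p of 0.0911. Without Western diet replicate 1 it was -0.68 (adjusted p = 0.0458), and without replicate 1 with NaKtide it was -0.75 (adjusted p = 0.0258). Elovl5 (-0.14 ± 0.24, adjusted p = 0.750), Elovl6 (-0.54 ± 0.40, adjusted p = 0.408) and Elovl1 (-0.06 ± 0.17, adjusted p = 0.857) were not called.

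Other liver transcripts moved with the Elovl3 result. Of 9 genes that are higher in male mouse liver, 4 were lower with NaKtide on Western diet, among them Hsd3b5 (-6.70 ± 1.04, adjusted p = 0.00109) and the organic anion transporter Slco1a1 (-3.57 ± 0.67, adjusted p = 0.00399). The list as a whole did not fall. Its 9 genes summed to 4775 to 11203 CPM (median 9684) with NaKtide, against 5821 to 10230 CPM (median 8071) without. Of 4 tested genes that are higher in female mouse liver, 3 were higher, among them Cyp2b13 (4.24 ± 0.75, adjusted p = 0.00301) and Cyp2b9 (3.21 ± 0.87, adjusted p = 0.0362). Of the suppliers of malonyl-CoA 3 of 8 were lower, among them ATP citrate lyase Acly (-1.86 ± 0.45, adjusted p = 0.0202) and acetyl-CoA synthetase Acss2 (-1.76 ± 0.40, adjusted p = 0.0139). No desaturase and no cycle partner was called, and of the control genes Insig2 (-1.16 ± 0.17, adjusted p = 0.000864) and Scap (-0.79 ± 0.13, adjusted p = 0.00199) were lower.

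Marker sums differed between the same 2 liver groups. In livers on Western diet with NaKtide 7 macrophage markers summed to 216 to 281 CPM, against 88.6 to 175 CPM without NaKtide. The 6 adipocyte markers summed to 159 to 281 CPM with NaKtide, against 24.0 to 186 CPM without, and the 5 cholangiocyte markers to 65.0 to 276 CPM, against 27.7 to 104 CPM. The 5 pancreatic acinar markers summed to 13.4 to 17.6 CPM with NaKtide, against 17.8 to 45.1 CPM without. The share of counts from mitochondrial genes was 7.06% to 16.9% with NaKtide, against 5.64% to 11.6% without. The 6 hepatocyte markers, at 26966 to 32792 CPM with NaKtide and 27556 to 34400 CPM without, overlapped. The part of these transcripts in the Elovl3 result was not tested.

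Among livers with NaKtide, those on Western diet had 38.4, 35.0, 16.6, 16.3 and 13.5 CPM of Elovl3, against 145, 241, 121, 85.1 and 99.4 CPM on control chow. The groups did not overlap, and the difference was -2.50 ± 0.37 (log2, SE; edgeR adjusted p = 0.000163). Elovl2 was lower too, at 230.4, 174, 137, 151 and 165 CPM on Western diet with NaKtide against 245, 201, 272, 407 and 336 CPM on control chow with NaKtide, with some overlap (-0.77 ± 0.21, adjusted p = 0.0150). In this comparison 24.5% of all genes and 2 of the 5 tested members were called. Elovl5 (0.51 ± 0.24, adjusted p = 0.119) and Elovl6 (0.29 ± 0.40, adjusted p = 0.616) were not called, although Elovl5 was without control chow NaKtide replicate 4 (0.80, adjusted p = 0.0132). Between these groups some marker sums did not overlap. Those of hepatocytes did, at 26966 to 32792 CPM on Western diet with NaKtide and 28421 to 39656.5 CPM on control chow with NaKtide. On Western diet with NaKtide macrophage markers summed to 216 to 281 CPM, against 70.3 to 152 CPM on control chow with NaKtide, and adipocyte markers to 159 to 281 CPM, against 18.8 to 102 CPM. Cholangiocyte markers summed to 65.0 to 276 CPM, against 10.2 to 26.1 CPM, and the mitochondrial share was 7.06% to 16.9%, against 5.33% to 6.87%. Their part in these results was not tested.

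The NaKtide effect on Western diet differed from that on control chow for 4 of the 5 members tested in liver, all in the negative direction, where 5% of genes were called. The difference between the 2 effects was -2.78 ± 0.50 for Elovl3 (log2, SE; edgeR adjusted p = 0.00362), -1.77 ± 0.34 for Elovl5 (adjusted p = 0.00680), -2.54 ± 0.57 for Elovl6 (adjusted p = 0.0184) and -1.27 ± 0.30 for Elovl2 (adjusted p = 0.0245). Elovl1 did not differ by the test (0.06 ± 0.24, adjusted p = 0.900). The median was -1.77 over the 5 members and -0.04 over all genes. The Elovl2 call was lost without NaKtide replicate 4 or 5 on control chow (adjusted p = 0.0544 and 0.0505) or NaKtide replicate 3 or 4 on Western diet (adjusted p = 0.0529 and 0.0540). Of the suppliers of malonyl-CoA 7 of 8 were negative and called, among them Acly (-4.41 ± 0.65, adjusted p = 0.00083) and Me1 (-3.43 ± 0.52, adjusted p = 0.00112), of the desaturases 4 of 7, and of the cycle partners none of 5.

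**Figure D3:**
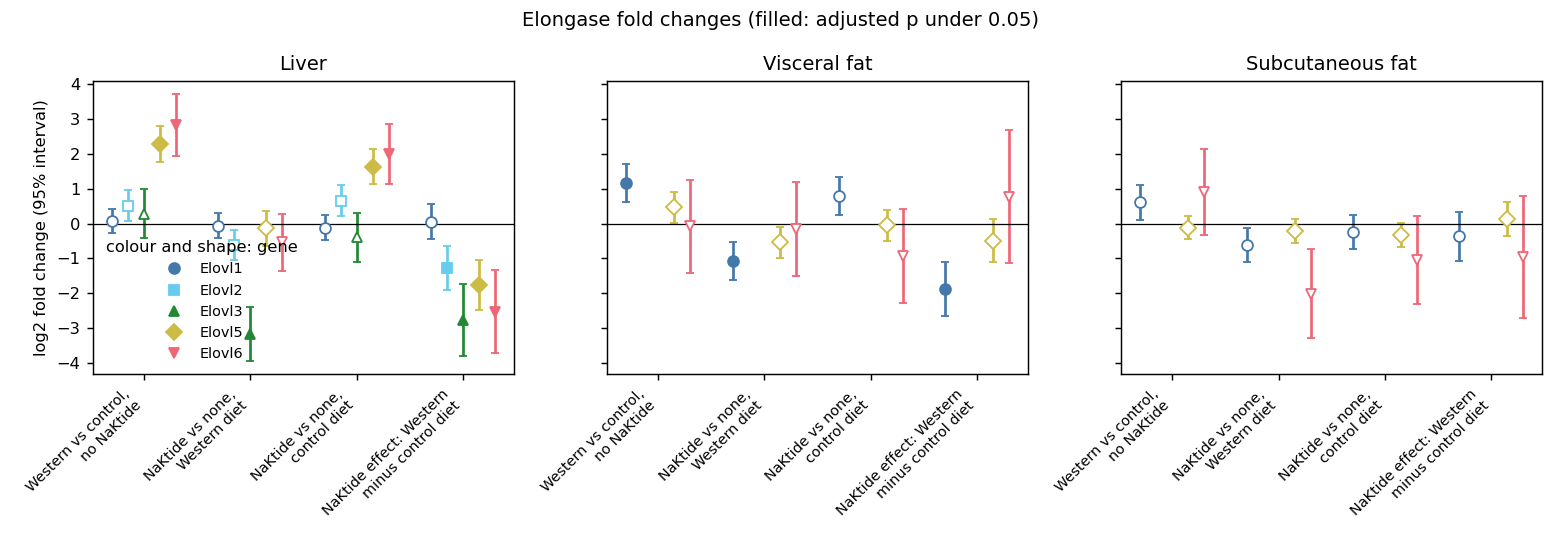
Log2 fold changes with 95% intervals from edgeR for the tested Elovl genes in each tissue, for diet, NaKtide on each diet and the difference of the NaKtide effects. Filled points passed an adjusted p of 0.05, and Elovl2 of visceral fat is not drawn. In liver Elovl5 and Elovl6 lie at 2.28 and 2.83 for Western diet and at 1.63 and 2.00 for NaKtide on control chow, and Elovl3 lies at -3.17 for NaKtide on Western diet.

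Elovl7 did not pass the low-count filter in liver. On Western diet with NaKtide it had 5, 5, 3, 7 and 18 counts, against 4, 1, 0, 0 and 0 counts on Western diet without. The ratio of summed counts per library total was 9.66 (exact interval 3.79 to 31.4, counting error only). Of the 5 Western diet counts 4 lay in replicate 1, and without that library the ratio was 38.9 (6.57 to 1575). Without NaKtide replicate 5, which had 18 of the 38 counts, it was 6.20 (2.26 to 21.1). The NaKtide livers' levels in CPM lay above all others on Western diet, but by very little. At the nearest, NaKtide replicate 1 had 0.686 CPM from 5 counts and Western diet replicate 1 had 0.680 CPM from 4 counts. The exact two-sided permutation p was 0.00794, the smallest that 5 against 5 can give, and 0.143 after adjustment over 36 comparisons of members below the filter. With that smallest p no comparison could pass the adjustment alone. With no low-count filter, edgeR called Elovl7 higher in this comparison (adjusted p = 0.0211). Against control chow with NaKtide, where there were 3 counts in all, the ratio was 17.7 (exact interval 5.62 to 89.7) with the same p, and edgeR with no low-count filter called it too (adjusted p = 0.00187). All 3 counts lay in control chow NaKtide replicate 4, without which Elovl7 was at least 13.7-fold higher with 3 counts over the group as the floor, and without Western diet NaKtide replicate 5 the ratio was 11.4 (3.37 to 59.8). The macrophage and cholangiocyte sums given above moved in the same direction, and their part was not tested.

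In visceral fat the called member was Elovl1, whose enzyme lengthens saturated chains for sphingolipids. It had 78.7, 129.8, 92.1, 118 and 118 CPM on Western diet, against 60.8, 62.6, 44.5, 48.1 and 20.9 CPM on control chow, and the groups did not overlap. The difference was 1.18 ± 0.26 (log2, SE; 2.26-fold, edgeR adjusted p = 0.00575). It was 1 of 4 members tested in a comparison that called 24.9% of 17235 genes, so the count is at the background. The median of all genes stood at -0.22 in this comparison.

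On Western diet with NaKtide Elovl1 had 38.6, 38.5, 60.4, 63.6 and 50.7 CPM, against 78.7, 129.8, 92.1, 118 and 118 CPM on Western diet without. The groups again did not overlap, and the difference was -1.09 ± 0.26 (log2, SE; adjusted p = 0.0117), 1 of 4 members where 13.2% of genes were called. With no low-count filter, more genes were tested and the adjusted p was 0.0647. On control chow NaKtide gave 56.9, 82.2, 71.2, 91.7 and 108 CPM, against 60.8, 62.6, 44.5, 48.1 and 20.9 CPM without, with overlapping groups and 0.79 ± 0.26 (adjusted p = 0.0708), where edgeR called 7.15% of genes and 0 of 4 members, with 1 member, Elovl1, at an unadjusted p under 0.05 and 1 called by DESeq2. That last value was called without control replicate 1 (0.95, adjusted p = 0.0461), control replicate 2 (0.97, adjusted p = 0.0386) or NaKtide replicate 1 (0.93, adjusted p = 0.0337). With NaKtide, Western diet against control chow gave -0.70 ± 0.26 (adjusted p = 0.144), where edgeR called 4.82% of genes and 0 of 4 members, with Elovl1 at an unadjusted p of 0.0139 and 0 called by DESeq2. The difference between the NaKtide effects on the 2 diets was -1.88 ± 0.37 (adjusted p = 0.00134), in a comparison with 32.2% of genes called.

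Without the 8 visceral libraries with epididymis and testis transcripts, Elovl1 differed by 0.88 for Western diet (adjusted p = 0.0219), -1.17 for NaKtide on Western diet (adjusted p = 0.00524) and -1.68 for the difference of the NaKtide effects (adjusted p = 0.00254), and all 3 stayed called. In that setting the diet difference with NaKtide was called too (-0.79, adjusted p = 0.0395). The sum of 7 macrophage markers, none at 0 in any group, was 291 to 1077 CPM on Western diet with NaKtide, 1301 to 3497 CPM on Western diet, 1608 to 2549 CPM on control chow with NaKtide and 155 to 489 CPM on control chow. Western diet and control chow with NaKtide were the high groups for this sum and for the median of Elovl1. The 5 fibroblast progenitor markers summed to 333 to 1128 CPM on Western diet with NaKtide, 909 to 1794 CPM on Western diet, 842 to 1498 CPM on control chow with NaKtide and 154 to 568 CPM on control chow. The mitochondrial share was 2.64% to 6.24% on Western diet with NaKtide, 1.73% to 2.63% on Western diet, 1.91% to 2.46% on control chow with NaKtide and 0.934% to 6.46% on control chow. Sums of the 5 lymphocyte markers (4.15 to 5.92 CPM on Western diet with NaKtide, against 9.60 to 21.9 CPM on Western diet) and the 5 pancreatic acinar markers (52.1 to 160 CPM on Western diet, against 4.69 to 33.9 CPM on control chow) did not overlap either. The part of these transcripts in the Elovl1 result was not tested.

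**Figure D4:**
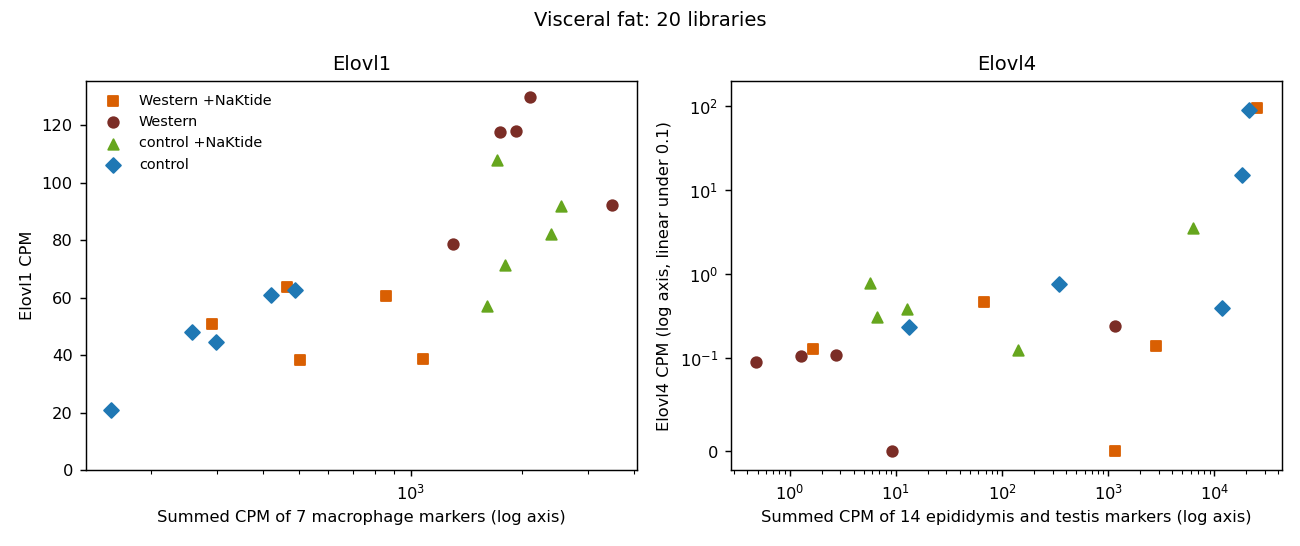
In the 20 visceral fat libraries, Elovl1 in CPM against the summed CPM of 7 macrophage markers (log axis), and Elovl4 in CPM (log axis, linear under 0.1) against the summed CPM of 14 epididymis and testis markers (log axis), with groups marked. Western diet and control chow with NaKtide lie at 1301 to 3497 and 1608 to 2549 CPM of macrophage markers, above Western diet with NaKtide at 291 to 1077 and control chow at 155 to 489, and Elovl4 is highest, at 95.1 CPM, in the library with the most epididymis and testis markers.

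The other members of visceral fat were not called for diet or NaKtide with all libraries. Elovl5 had 94.2, 73.6, 94.6, 100.7 and 95.5 CPM on Western diet, against 98.6, 80.3, 58.8, 54.1 and 39.8 CPM on control chow, a difference of 0.47 ± 0.21 (adjusted p = 0.103) that was called without control replicate 1 (0.70, adjusted p = 0.0235). With NaKtide on Western diet Elovl5 had 62.6, 60.4, 62.4, 79.3 and 49.5 CPM, and its difference from Western diet was -0.55 ± 0.21 (adjusted p = 0.0860, or 0.0411 with DESeq2 and 0.0490 with the 2 groups alone). Elovl6 had 49.96, 55.0, 76.5, 67.0 and 64.3 CPM on Western diet, against 24.6, 11.3, 54.9, 177 and 62.7 CPM on control chow. The control libraries ranged widely around the Western ones, replicate 4 highest, and the difference was -0.08 ± 0.64 (adjusted p = 0.935). It was 0.71 without control replicate 4 and 1.88 without the 8 libraries (adjusted p = 0.0350). The latter fit kept only control replicates 1 and 2, at 24.6 and 11.3 CPM. Elovl2 differed by -3.72 ± 1.88 for Western diet (adjusted p = 0.141), and its values followed the 8 libraries as given above. Of the list genes, Scd2 rose with Western diet (2.50 ± 0.34, adjusted p = 0.00022) and fell with NaKtide on Western diet (-2.24 ± 0.34, adjusted p = 0.000694), as did the cycle dehydratase Hacd4 (1.58 ± 0.36, adjusted p = 0.00647, and -1.24 ± 0.35, adjusted p = 0.0286). Hacd3, another dehydratase of the cycle, fell with Western diet (-0.70 ± 0.24, adjusted p = 0.0407). Of the lists, 4 of 8 suppliers and 3 of 7 desaturases rose with Western diet, where 10.5% of all genes tested did. With NaKtide on Western diet 1 of each list fell, where 6.95% of all genes tested did, so those single calls are not read as a result.

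In subcutaneous fat 0 of 3 tested members (Elovl1, Elovl5 and Elovl6) were called by edgeR in any comparison of diet or NaKtide. For Western diet 5.61% of 15226 genes were called, and for NaKtide on either diet 0%, with 1873 genes at an unadjusted p under 0.05 on Western diet and 918 on control chow. Of the members, 1 was under an unadjusted p of 0.05 for Western diet, 2 for NaKtide on Western diet and 0 for NaKtide on control chow. Elovl6 had 30.2, 20.99, 37.1, 16.8 and 20.8 CPM on Western diet with NaKtide, against 78.1, 73.1, 116, 148 and 95.7 CPM on Western diet without. The groups did not overlap, and the difference was -2.02 ± 0.61 (log2, SE) with an unadjusted p of 0.00352 and an adjusted p of 0.186. With DESeq2 it was called at an adjusted p of 0.0442, and with the 2 groups fitted alone at 0.0121. On control chow Elovl6 had 16.6, 171, 58.9, 21.1 and 7.39 CPM, with replicate 2 above all Western diet values and the other 4 below them, and Western diet differed by 0.91 ± 0.59 (adjusted p = 0.355). Without control replicate 2, the highest, that difference was 1.97 (adjusted p = 0.0364).

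Elovl1 had 69.4, 74.7, 87.2, 90.4 and 61.6 CPM in subcutaneous fat on Western diet, against 51.8, 60.99, 42.4, 49.0 and 47.6 CPM on control chow. All Western values lay above all control values, with a difference of 0.61 ± 0.24 (adjusted p = 0.130), called when the 2 groups were fitted alone (adjusted p = 0.0124). Muscle markers lay at 24.0 to 154 CPM on Western diet and 5824 to 44539 CPM on control chow, and the mitochondrial share at 2.39% to 3.37% and 4.12% to 11.1%. Their part in these values was not tested. Elovl5 differed by -0.12 ± 0.16 (adjusted p = 0.687). Of the lists, 4 of 7 desaturases rose with Western diet, among them Scd2 (2.70 ± 0.44, adjusted p = 0.00961) and Scd3 (2.32 ± 0.40, adjusted p = 0.00993), and 2 of 8 suppliers, Acss2 (2.65 ± 0.46, adjusted p = 0.00993) and Me1 (1.10 ± 0.30, adjusted p = 0.0344). Elovl2, Elovl3, Elovl4 and Elovl7 were near 0 in subcutaneous fat, with Elovl3 at 5.12 CPM at most.

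**Figure D5:**
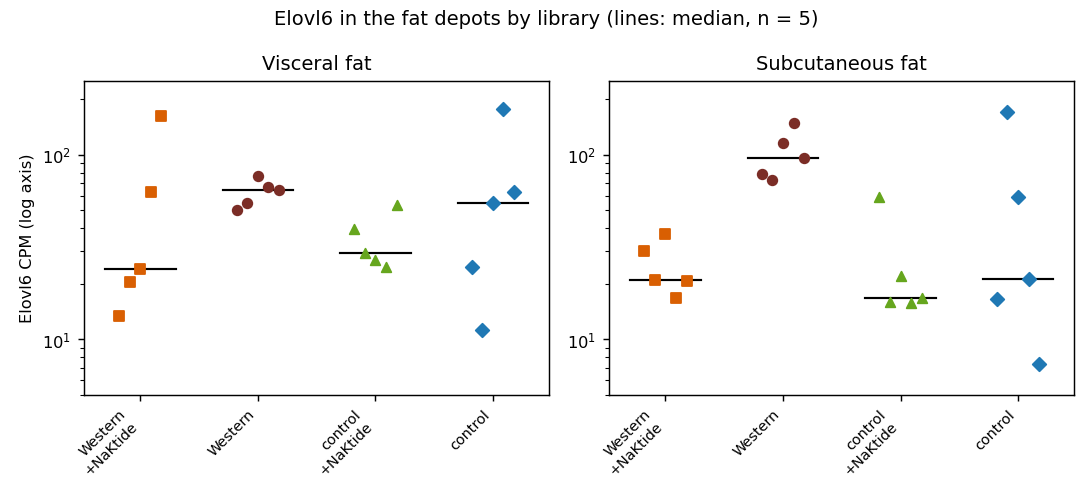
Elovl6 level in CPM on a log axis in visceral and subcutaneous fat, by diet and NaKtide (points are libraries, lines the median, n = 5). In subcutaneous fat Western diet with NaKtide lies at 16.8 to 37.1 CPM, under Western diet at 73.1 to 148 CPM, and control chow spreads from 7.39 to 171 CPM.

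The diet effect on Elovl5 was larger in liver than in either fat. The liver minus subcutaneous difference of effects was 2.38 ± 0.31 (log2, SE; edgeR adjusted p = 1.10e-05) with 0.699% of genes called, and the liver minus visceral difference was 1.80 ± 0.31 (adjusted p = 0.000258) with 10.4% called. The NaKtide effect on control chow differed likewise for Elovl5, by 2.00 ± 0.31 from subcutaneous fat (adjusted p = 0.00089), where 0.0165% of genes were called, and by 1.69 ± 0.31 from visceral fat (adjusted p = 0.00178), where 4.5% were. Against visceral fat the diet effect also differed for Elovl6 (2.91 ± 0.85, adjusted p = 0.0213) and Elovl1 (-1.11 ± 0.33, adjusted p = 0.0236), and the NaKtide effect on control chow for Elovl6 (2.95 ± 0.85, adjusted p = 0.0335). Without the 8 visceral libraries these were 0.90 (adjusted p = 0.724), -0.86 (adjusted p = 0.190) and 1.07 (adjusted p = 0.589), and none was called. The Elovl1 call was also lost without liver control replicate 1 (-1.01, adjusted p = 0.0541) or 2 (-1.01, adjusted p = 0.0542). Both Elovl6 values lost the call without visceral control replicate 4, at 2.13 (adjusted p = 0.0957) and 2.17 (adjusted p = 0.124), and without the control livers with muscle transcripts (adjusted p = 0.0567 and 0.0727). The second also lost it without any 1 of liver control replicates 3, 4 and 5, liver NaKtide replicates 4 and 5 or visceral NaKtide replicates 2, 3 and 4 (adjusted p 0.0543 to 0.105).

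For NaKtide on Western diet, liver differed from visceral fat for Elovl1 (1.03 ± 0.33, adjusted p = 0.0346, 10.4% of genes called), a call lost when any 1 of 10 libraries was left out (adjusted p 0.0508 to 0.0702). They were Western diet liver replicates 2 and 3, Western diet with NaKtide liver replicates 1, 2 and 4, Western diet visceral replicates 2, 4 and 5, and Western diet with NaKtide visceral replicates 1 and 2. Elovl3 was called in the same comparison when any 1 of Western diet liver replicate 1, Western diet with NaKtide liver replicate 1, Western diet visceral replicate 1 or Western diet with NaKtide visceral replicates 1, 2 and 3 was left out (adjusted p 0.0280 to 0.0418). Without replicate 1 of both Western diet liver groups, Elovl3 was called (-3.94, adjusted p = 0.0286) and Elovl1 was not (0.94, adjusted p = 0.0645). As those livers were chosen by their Elovl3 values, the larger Elovl3 difference was fixed in advance. Liver against subcutaneous fat called no member with edgeR, where 0.066% of genes were called, with 0 members at an unadjusted p under 0.05 and 1 called by DESeq2. Visceral against subcutaneous fat called 0 for the diet effect with either tool, where edgeR called 5.29% of genes, and 0 members had an unadjusted p under 0.05.

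The genes whose levels followed the members most closely were named by Pearson's r of log2 CPM over the 20 libraries of a tissue. These libraries share tissue and span the 4 groups, so group differences enter r, and no p is given. In liver Elovl5 was closest to Ntrk2 (r = 0.93), Tkt (0.93) and Aqp8 (0.92), and Elovl6 to Acaca (0.96), Rgs16 (0.95) and Pgrmc2 (0.95), while Elovl5 and Elovl6 gave 0.91 with each other. Elovl3 was closest to Tuba4a (0.94), Slco1a1 (0.93) and the coagulation factor F11 (0.93). In subcutaneous fat Elovl6 was closest to Fasn (0.94), Acly (0.94) and Me1 (0.89), enzymes that make palmitate or its precursors. In visceral fat Elovl6 was closest to Cyp51 (0.92), Sqle (0.89) and Nsdhl (0.89), which act in cholesterol synthesis, and Elovl1 was closest to Sc5d (0.96), which does so too.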

How the data were processed

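Libraries were made from total RNA of each tissue with a TruSeq mRNA kit that keeps the strand, per the labels' protocols. Per the submitters' processing notes the tools were HISAT2 2.1.0, Trimmomatic 0.38 and DESeq2 1.20.0 and the build GRCm38. What counted the reads, with which strand setting and annotation, is not given in the sources used here. Raw counts and FPKM per gene were deposited by the authors, per the file headers. The deposited FPKM are the counts divided by 1 factor per library and by gene length (largest relative deviation 9.55e-15 over 7908 genes). The deposited normalized counts were not used.

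Counts were tested with edgeR 4.0.16 in R 4.3.3 (quasi-likelihood F test after filterByExpr and TMM scaling, with a Benjamini-Hochberg threshold of 0.05 over all genes tested), with 1 model of 20 libraries and 4 groups per tissue and 1 model of all 60 libraries between tissues. Genes tested numbered 12991 in liver, 15226 in subcutaneous fat, 17235 in visceral fat and 18175 in all. Standard errors come from the log2 fold change and its F statistic. CPM are TMM-scaled within each tissue except where given as counts per M, so they are not scaled for comparison between tissues. Members below the filter were compared by exact permutation tests. The pipeline was tested on simulated data.

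All 7 members are named. Of each pathway list, up to 2 called genes in each direction with the smallest p are named, and for each tested member the 3 genes with the highest r among genes with a mean of at least 5 CPM, some of which are not reported here. The members and lists were chosen with earlier results of these data known. Alternatives were DESeq2 1.42.0, RLE scaling, testing without a low-count filter, the 2 groups alone, a replicate block and leaving out each replicate. Leaving out the visceral libraries with epididymis and testis markers, the livers with muscle markers, livers W1 and WN1, or each library in the Elovl7 ratio was chosen after seeing the data. The labels do not say how the animals were assigned to replicates, so p-values measure the spread between these samples.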

Additional observations from a re-analysis of the deposited data

Results flagged for a closer look

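Within groups of 5 libraries, 9 of 49 groups of members held a library that stood apart from the other 4 (gap over range above 0.71), where chance gives about 1 in 20. In visceral fat these were Elovl2 at 41.3 CPM in control chow with NaKtide replicate 1 and at 149.9 CPM in control chow replicate 5, and Elovl4 at 95.1 CPM in Western diet with NaKtide replicate 5 and at 90.6 CPM in control chow replicate 4. All 4 of these libraries are among the 8 with epididymis and testis transcripts. Elovl5 was low in Western diet visceral replicate 2, at 73.6 CPM. In liver, Elovl1 was high at 54.9 CPM in control chow with NaKtide replicate 1 and low at 48.6 CPM in Western diet replicate 3, and Elovl5 was high at 313.6 CPM in control chow replicate 4, a library with muscle transcripts. In subcutaneous fat Elovl6 was high at 58.7 CPM in control chow with NaKtide replicate 1.

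The log2 effects below differed between diets or tissues by edgeR's test of the difference itself. The effect of NaKtide on Western diet, less its effect on control chow, was -2.78 for Elovl3, -2.54 for Elovl6, -1.77 for Elovl5 and -1.27 for Elovl2 in liver, and -1.88 for Elovl1 in visceral fat. The diet effect in liver minus that in subcutaneous fat was 2.38 for Elovl5, and minus that in visceral fat it was 1.80 for Elovl5, 2.91 for Elovl6 and -1.11 for Elovl1. The NaKtide effect on control chow in liver minus that in subcutaneous fat was 2.00 for Elovl5, and minus that in visceral fat it was 1.69 for Elovl5 and 2.95 for Elovl6. For NaKtide on Western diet the liver minus visceral difference was 1.03 for Elovl1.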

How the results depend on the processing

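Of 140 counts of called members under alternatives other than leaving out 1 replicate, 113 kept within 1.5 times of the reported count. Of 348 log2 fold changes of single genes, 317 kept direction and side of the threshold, 17 lost the call, 12 gained one and 2 reversed. RLE scaling moved none of these counts. With no low-count filter the count was 2 for NaKtide on Western diet in liver (Elovl3 lower and Elovl7 higher), 0 for NaKtide on Western diet in visceral fat, 2 for the difference of NaKtide effects in visceral fat (Elovl1 and Elovl4), 1 for liver minus visceral fat in the NaKtide effect on control chow and 0 in that on Western diet. With DESeq2 it was 1 for NaKtide on Western diet in subcutaneous fat, 2 in visceral fat, 1 for NaKtide on control chow in visceral fat, 2 each for liver minus subcutaneous fat in the effects of diet and of NaKtide on control chow, and 1 and 3 for the NaKtide effect on Western diet in liver minus subcutaneous and minus visceral fat. With the 2 groups alone it was 1 for diet and 1 for NaKtide on Western diet in subcutaneous fat and 2 for NaKtide on Western diet in visceral fat. Without the 8 visceral libraries it was 2 for diet and 1 for diet with NaKtide in visceral fat, 0 for visceral against subcutaneous fat, and 1 each for liver minus visceral fat in the effects of diet and of NaKtide on control chow. Without the livers with muscle transcripts it was 1 for NaKtide on control chow in liver and 1 for its liver minus visceral difference. Without livers W1 and WN1 it was 2 for NaKtide on Western diet in liver and 1 for its liver minus subcutaneous difference.

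With a replicate block the count was 1 for NaKtide on control chow in liver (Elovl6 at 2.00, adjusted p = 0.0659), 2 for the difference of NaKtide effects in liver (Elovl2 at -1.22, adjusted p = 0.0648, and Elovl6 at -2.56, adjusted p = 0.0656, lost the call) and 1 for liver minus visceral fat in the NaKtide effect on control chow, and Elovl6 for diet in visceral fat reversed to 0.35. Between groups set against each other in a comparison, in no case were all 5 correlations of same-numbered samples over 0.1, so the numbers are not read as pairing. Of the other pairs of groups, visceral Western diet and control chow with NaKtide had 5 of 5 over 0.1 (0.315 to 0.783), and both enter the visceral difference of NaKtide effects. The other reversal was Elovl6 for diet in visceral fat at 1.88 without the 8 libraries.

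Leaving out each replicate in turn, counts ranged from 1 to 2 for NaKtide on either diet in liver, 0 to 1 for diet in subcutaneous fat, 1 to 3 for diet, 1 to 2 for NaKtide on Western diet, 0 to 2 for NaKtide on control chow and 1 to 3 for the difference of NaKtide effects in visceral fat. They ranged from 1 to 2 for visceral against subcutaneous fat, 1 to 4 for liver minus visceral fat in the NaKtide effect on control chow and 0 to 2 in that on Western diet. In visceral fat Elovl4, which fell under the filter with all libraries, was tested and called in some of these. Log2 values of uncalled genes that changed sign ranged from -0.048 to 0.19 for Elovl1 with diet in liver, -0.050 to 0.18 for Elovl1 in the difference of NaKtide effects in liver and -0.30 to 0.71 for Elovl6 with diet in visceral fat. The cause of these shifts was not tested, except that fewer samples or more genes enter by construction. Depth limits Elovl4 and Elovl7, which had few counts in most libraries.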

Other observations

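Of 8 genes for shortening in peroxisomes, 1 was called in liver for NaKtide on each diet, the very long chain transporter gene Abcd2, higher by 1.88 ± 0.49 on Western diet (log2, SE; edgeR adjusted p = 0.0285) and by 1.88 ± 0.48 on control chow (adjusted p = 0.0497). Of all genes tested 4.79% and 1.55% were called there, so these single calls are not read as a result about the list. Of 9 thermogenic fat genes, among which Elovl3 is often placed in brown fat, Cidea was higher with Western diet in liver (7.76 ± 1.503, adjusted p = 0.00259), where 4.75% of all genes tested rose. There the 9 genes summed to 5.92 to 82.0 CPM (median 57.3) on Western diet, against 4.10 to 22.7 CPM (median 5.42) on control chow. The proton channel gene Otop1 was higher with Western diet in subcutaneous fat (1.88 ± 0.54, adjusted p = 0.0476) and in visceral fat (3.90 ± 0.68, adjusted p = 0.00106). Of all genes tested, 2.21% and 10.5% rose there. The list as a whole did not rise in subcutaneous fat. Its sum was 106 to 511 CPM (median 148) on Western diet, against 196 to 1051 CPM (median 324) on control chow. In visceral fat the sums overlapped, at 27.8 to 65.5 CPM against 19.8 to 65.7 CPM. In visceral fat Otop1 was lower with NaKtide on Western diet (-4.55 ± 0.71, adjusted p = 0.000764), where 6.95% of all genes tested fell. It was higher with NaKtide on control chow (3.83 ± 0.67, adjusted p = 0.00195), where 5.26% rose. These calls of single genes are not read as a result about the list.

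Members below the low-count filter were compared in 36 exact two-sided permutation tests, of which 4 had an unadjusted p under 0.05 and 0 passed the adjustment over them. As 5 against 5 libraries give no p under 0.00794, no comparison could pass that adjustment alone, whatever its values. With no low-count filter, edgeR called 2 of these comparisons, both of Elovl7 in liver. Of the 4 permutation tests under 0.05, 2 were those Elovl7 comparisons. The others were Elovl4 for Western diet in visceral fat and Elovl2 for diet with NaKtide in subcutaneous fat. Elovl4 had 5 counts over the visceral libraries on Western diet, against 588 on control chow, of which 580 lay in replicates 4 and 5, libraries with epididymis and testis transcripts (exact permutation p = 0.0159, adjusted 0.190). Elovl2 had 30 counts over the subcutaneous libraries on Western diet with NaKtide, in 4 of 5 libraries, against 0 on control chow with NaKtide (exact permutation p = 0.0476, adjusted 0.429).

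The ceramide synthases take up very long chains of the kind that ELOVL1 and ELOVL3 make. With edgeR 0 of 3 tested in liver and 0 of 4 tested in each fat were called for diet or NaKtide. At an unadjusted p under 0.05 were Cers6 in liver for NaKtide on Western diet (log2 0.93, adjusted p = 0.106) and on control chow (0.82, adjusted p = 0.217), Cers4 in subcutaneous fat for diet with NaKtide (0.75, adjusted p = 0.110) and in visceral fat for NaKtide on control chow (0.80, adjusted p = 0.162) and the difference of the NaKtide effects (-1.22, adjusted p = 0.0690), and Cers2 in visceral fat for diet with NaKtide (0.48, adjusted p = 0.221). DESeq2 was not read for this list.

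By Pearson's r of log2 CPM over the 20 libraries of a tissue, which share tissue and span the groups, Elovl1 was closest to Srm (0.84) and Atp6v0d1 (0.82) in liver, to Tnfrsf1a (0.97) and Sec61a1 (0.96) in subcutaneous fat, and after Sc5d to Trmt61a (0.96) and Nek6 (0.96) in visceral fat. Elovl2 was closest to Ndst1 (0.92), Hnrnph2 (0.91) and Srp72 (0.90) in liver and to Ppp1r36 (0.96), Tmem184a (0.96) and Stard10 (0.96) in visceral fat. Elovl5 was closest to Lnx2 (0.91), Sh2b2 (0.90) and Rbm47 (0.87) in subcutaneous fat and to Adamts9 (0.93), Nisch (0.92) and Helz2 (0.91) in visceral fat.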
